A study of Mus musculus with 105 samples.

Results

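The comparison set a mouse embryonic stem cell line that carries the S12N-SD2 fusion in place of SUZ12 against the line called R, in which SUZ12 is intact. Its members were the 3 libraries of each line grown with the vehicle DMSO, 6 of the 105 samples of the series, chosen by their labels. All 27179 listed genes were examined, and 15211 passed the filter on low counts and were tested. Every line came from E14TG2a, a widely used mouse embryonic stem cell, was grown in serum with LIF on gelatin, and carried a knock-in that joins FKBP12 to RBBP5. R had no other change. RS had the knock-in plus a Suz12 knockout. The SD2 line had the knock-in, the Suz12 knockout and expression of S12N-SD2. Cells were plated the day before and received 0.1% DMSO, or 500 nM dTAG-13, for 24 h, and poly(A) RNA was sequenced. The 3 libraries of RS in DMSO, 6 of R and the SD2 line in dTAG-13, and libraries of other datasets of the series are used below to place the difference. The labels give 1 line per genotype and do not say how many clones it holds or that replicates were separate cultures, so p-values measure the spread between these libraries, and genotype cannot be told apart from other differences between the lines.

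Polycomb repressive complex 2 (PRC2) methylates lysine 27 of histone H3 at the promoters of developmental genes, which embryonic stem cells keep at low levels, and SUZ12 is the subunit that holds the complex together. The C-terminal VEFS domain of SUZ12 contacts the catalytic subunit, and S12N is the protein with that domain removed. The labels do not spell out SD2. RBBP5 is a core subunit of the COMPASS complexes, which methylate lysine 4 of histone H3 at active genes, and dTAG-13 directs degradation of proteins that carry the FKBP12 tag.

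The R and SD2 libraries held 15.16 to 17.19 M counts, and the 18 libraries of the fit 11.44 to 17.78 M. Levels are given as CPM, the count of a gene scaled by its library's TMM-adjusted total. They are not divided by transcript length, so they compare libraries, not genes. Suz12 itself stood at 327, 325 and 324 CPM in the R libraries and at 83, 76.5 and 80.3 CPM in the SD2 libraries. The groups did not overlap, and the log2 fold change was −2.02 ± 0.087 (SE, n = 3 per group). RS stood at 59.3 ± 3.62 CPM (SD, n = 3), so the knockout lines kept part of the transcript, and the counts do not separate fusion from endogenous reads. Rbbp5 had 82.9, 85.4 and 82.6 CPM in R and 89.1, 92.3 and 96.1 in the SD2 line, a difference that missed the threshold (adjusted p = 0.194, edgeR's quasi-likelihood test) but passed it when these 6 libraries were fitted alone (0.16, adjusted p = 0.00227). Both lines expressed the defining pluripotency factors: Pou5f1 had 706 to 752 CPM in R and 663 to 683 in the SD2 line, and its difference did not pass the test (−0.12 ± 0.14, adjusted p = 0.498).

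More than every second gene differed between the SD2 line and R. Of the 15211 genes tested, 8575 (56.4%) passed an adjusted p of 0.05, a gene past it being called below; 4601 (30.2%) were higher and 3974 (26.1%) lower in the SD2 line. At a fold of at least 2 the balance was unequal, with 2452 genes (16.1%) higher and 572 (3.76%) lower. The groups of 3 did not overlap for 10763 genes (70.8%). Genes that were nearly silent in R made up most of those higher: of the 2785 tested genes under 1 CPM in R, 1563 (56.1%) were at least 2-fold higher, 63.7% of all such genes. Many of these passed the filter through their level in the SD2 line or RS, which favours a rise. Of the 2595 genes over 100 CPM in R, 12 (0.462%) were at least 2-fold higher and 100 (3.85%) at least 2-fold lower.

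**Figure D1:**
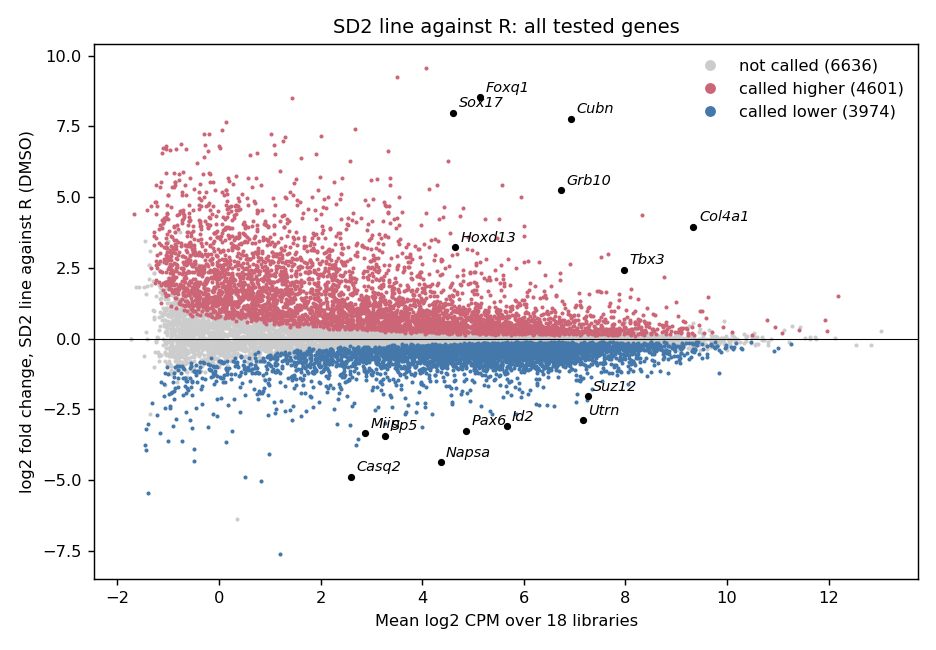
Each point is 1 of the 15211 tested genes, with its mean log2 CPM over the 18 libraries on the x axis and the log2 fold change of the SD2 line against R in DMSO on the y axis. The 4601 genes called higher spread further from 0 than the 3974 called lower, mostly at low mean level.

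The SD2 line lay closer to R than RS did by a root mean square over genes, a measure that weights large differences. The median absolute log2 fold change from R was closer, 0.377 for the SD2 line and 0.407 for RS. The root mean square log2 difference over the 15211 genes, averaged over library pairs, was 0.997 between the SD2 line and R, 1.14 between RS and R and 0.582 between the SD2 line and RS. Within lines it was 0.357 for R, 0.293 for the SD2 line and 0.289 for RS. RS against R had 8976 genes called (59%), 2628 (17.3%) at least 2-fold higher and 741 (4.87%) at least 2-fold lower. The SD2 line against RS had 4257 called (28%), 351 (2.31%) at least 2-fold higher and 605 (3.98%) at least 2-fold lower. These comparisons share libraries, so their counts are set side by side and not tested against each other.

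Genes that rise without Suz12 in another dataset of the series made up a large part of what was higher here. A wild type and a Suz12 knockout of the HP1 dataset, which share no library with this comparison, had 3111 of 14026 genes called higher (22.2%) and 2756 lower (19.6%) in the knockout, 1429 (10.2%) and 239 (1.7%) of them at least 2-fold. Of the 1429, the Suz12-repressed genes, 1390 were tested here; 1146 were higher and 53 lower in the SD2 line than in R, with a median log2 difference of 1.60 against 0.01 over all tested genes. Among the 13824 genes tested in both datasets, 928 were at least 2-fold higher in both, which was 51% of the 1820 genes higher here and 66.8% of the Suz12-repressed ones. The converse list of 234 tested genes that fall without Suz12 had 21 higher and 144 lower here, with a median of −0.74. Of the 507 genes at least 2-fold lower here, 85 (16.8%) were on it, 36.3% of that list. In RS against R the repressed list counted 1180 higher and 42 lower with a median of 1.81. In the SD2 line against RS 186 of its members were higher and 500 lower, against 13% and 14.9% of all tested genes, with a median of −0.19.

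**Figure D2:**
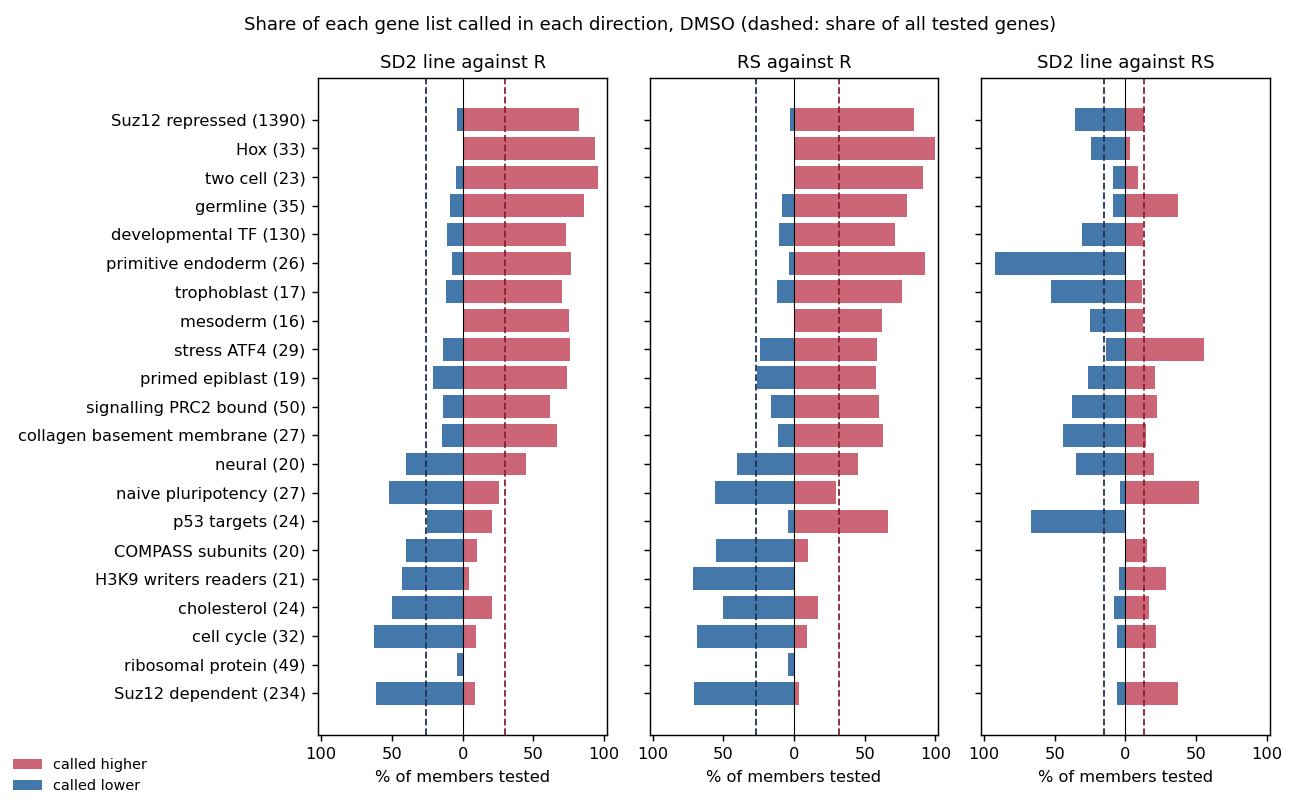
Bars give the share of each gene list's tested members (number in brackets) called higher to the right and called lower to the left, in percent, for the SD2 line against R, RS against R and the SD2 line against RS; dashed lines mark the same shares over all tested genes. Hox, 2-cell and germline lists reach the largest shares higher in the SD2 line against R, and the primitive endoderm list has 24 of 26 members lower in the SD2 line than in RS.

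Hox genes, which give cells their position along the body axis and are classic PRC2 targets, were higher almost without exception among those tested. Of 39 listed, 33 passed the filter, and 31 of these were higher and 0 lower in the SD2 line than in R (median 2.97). Over all tested genes 30.2% were higher and 26.1% lower. Members near 0 in R could pass only through their level in other groups, which favours a rise. Hoxd13, the most 5′ gene of its cluster and a limb patterning factor, had 3.37, 2.55 and 3.85 CPM in R and 29.8, 29.6 and 32.2 in the SD2 line. All SD2 libraries stood several-fold above all R libraries, with a log2 fold change of 3.23 ± 0.10 (adjusted p = 7.04e-14, edgeR's quasi-likelihood test). RS had 36.8 ± 0.901 CPM. Hoxa11, another posterior limb and uterus patterning gene, had 0.27 to 0.437 CPM in R and 8.59 to 10 in the SD2 line. Its R total was 16 counts, under 30, so its log2 ratio of 4.75 is given with a 95% counting interval, 4.04 to 5.57. Hoxc11 had 0 counts in all R libraries and 0.685, 1.58 and 1.21 CPM in the SD2 line, at least 18.2-fold higher against a floor of 3 counts over the R group. The 2 members not called were Hoxd12 (0.188 CPM in R, 0.432 in the SD2 line) and Hoxb8 (0.0826 and 0.219). Against RS, 1 Hox gene (3.03%) was higher in the SD2 line and 8 (24.2%) were lower, beside 13% and 14.9% of all tested genes.

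Transcription factors of development as a class leaned the same way but not uniformly. Of 130 tested, 95 (73.1%) were higher and 14 (10.8%) lower than in R, with a median of 1.65. For this and the Meis and Pbx list below, 30.2% of all tested genes were higher and 26.1% lower. Tbx3, a T-box factor of early mesoderm and limb that also acts in pluripotent cells, had 58.6, 53.5 and 60.5 CPM in R and 308, 303 and 326 in the SD2 line. The SD2 libraries were all more than 4 times the R libraries, with a log2 fold change of 2.44 ± 0.052, and differed from RS (328 ± 2.2) by −0.07 ± 0.049, which missed the threshold. Hand1, a factor of trophoblast giant cells and heart, rose from 0.121 to 0.312 CPM in R to 6.53 to 7.25 in the SD2 line (log2 ratio 5.17, 95% counting interval 4.23 to 6.31). The cofactors of Hox proteins from the Meis and Pbx families had 6 of 10 members higher and 3 lower, with Meis1 at 0.774 CPM in R and 6.58 in the SD2 line, and Meis3 at 3.02 and 1.73. Of the lower factors, Pax6, Sox1, Emx2 and Neurod1 are also on the neural list described below.

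Signalling genes listed as PRC2-bound, a trait not measured in these counts, had 31 of 50 tested members higher (62%) and 7 lower (14%). Over all tested genes 30.2% were higher and 26.1% lower. The median of the list was 1.00. Kdr, the VEGF receptor of endothelial progenitors, had 0.686, 1.09 and 0.338 CPM in R and 28.4, 27.7 and 28.1 in the SD2 line. Its log2 fold change was 5.27 ± 0.17, and RS was at 29.9 ± 1.5 CPM. Fgf10, the FGF ligand of limb and lung budding, stood at 0.405 to 0.607 CPM in R and 10.6 to 11.5 in the SD2 line (log2 ratio 4.45, 95% counting interval 3.86 to 5.10), well under the 29.6 ± 1.28 of RS. The Hedgehog receptor Ptch1 went the other way, from 219, 192 and 198 CPM in R to 42.4, 40.7 and 38.1 in the SD2 line (−2.33 ± 0.20). Cdkn2a, the locus of the INK4A and ARF proteins that restrain proliferation, had 7.68 ± 1.34 CPM in R and 24 ± 1.25 in the SD2 line.

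**Figure D3:**
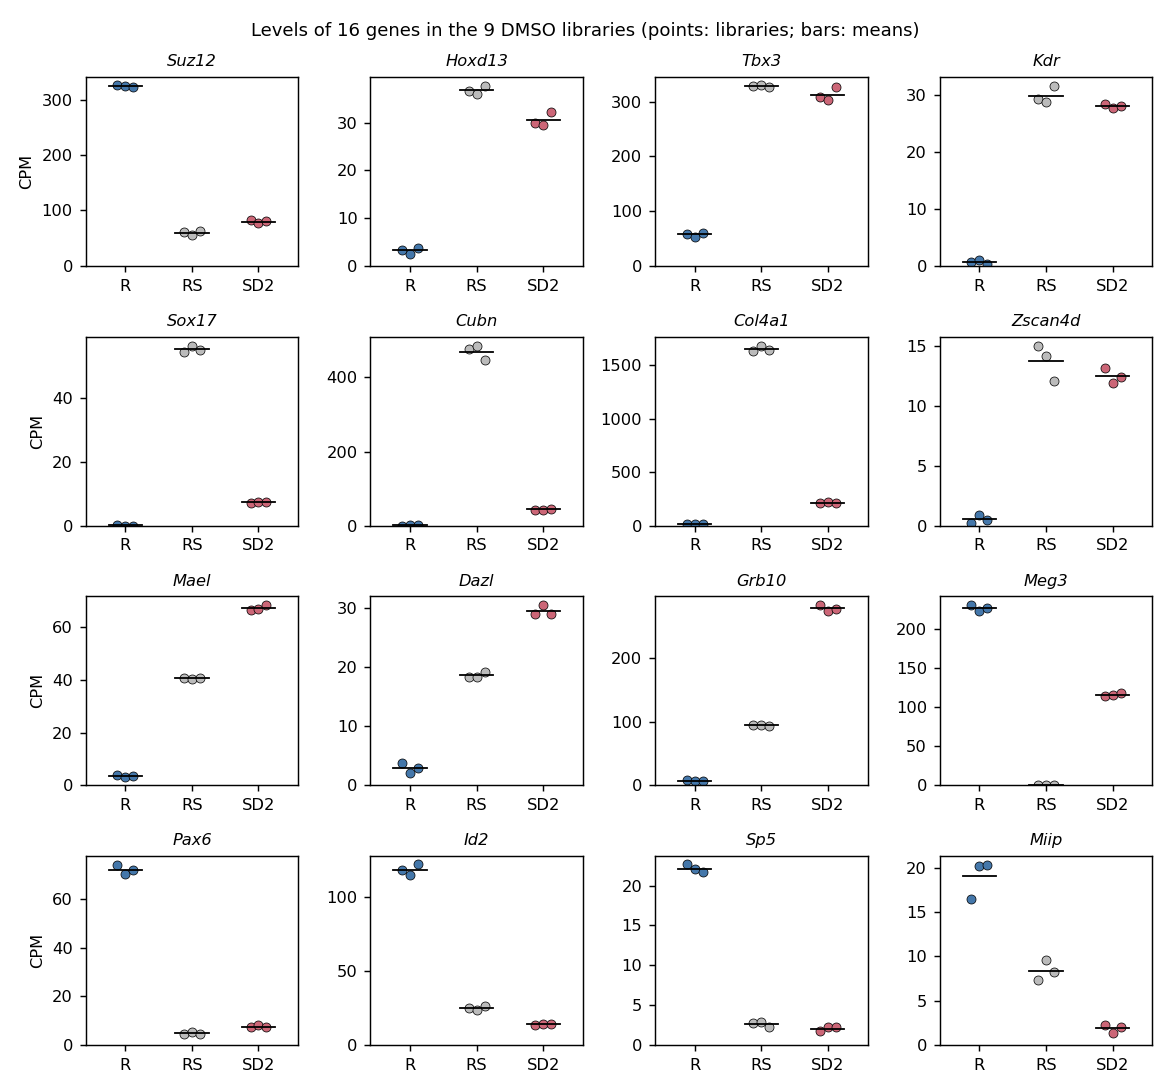
Levels of 16 genes in CPM (y axes, each with its own scale) in the 3 libraries of R, RS and the SD2 line in DMSO; points are libraries and bars group means. Hoxd13, Tbx3 and Kdr sit near the RS level in the SD2 line, Sox17, Cubn and Col4a1 between R and RS, Mael, Dazl and Grb10 above RS, and Pax6, Id2, Sp5 and Miip below R.

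Primitive endoderm markers, which the extraembryonic layer next to the epiblast expresses, were higher than in R and lower than in RS. Of 26 tested, 20 were higher and 2 lower than in R (median 2.13), and 24 were lower and 0 higher than in RS (median −2.44). Of all tested genes 30.2% were higher and 26.1% lower than in R, and 14.9% were lower and 13% higher than in RS. The RS difference from R had 24 higher and 1 lower, with a median of 3.98. Col4a1, a chain of the type IV collagen of basement membrane, had 14.2, 14.2 and 13.4 CPM in R, 212, 224 and 211 in the SD2 line and 1656 ± 25.6 in RS. Every SD2 library lay far above R and far below RS, with log2 fold changes of 3.95 ± 0.076 and −2.94 ± 0.068. Cubn, the endocytic receptor cubilin of visceral endoderm, had 0.0624, 0.304 and 0.203 CPM in R and 42.5, 42.9 and 45 in the SD2 line, against 469 ± 20.7 in RS. The log2 ratio to R was 7.83 (95% counting interval 6.91 to 8.96, 9 counts in R), and the difference from RS was −3.43 ± 0.094.

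The endoderm regulators followed the same order of R, SD2 line and RS. Gata6 stood at 0.338 to 0.562 CPM in R, 19.1 to 21.2 in the SD2 line and 119 ± 5.43 in RS, and Gata4 at 0.624 to 0.911, 9.76 to 11 and 58.3 ± 2.63. Sox17 had 1 count in the whole R group and 7.07, 7.38 and 7.44 CPM in the SD2 line, a log2 ratio of 8.43 (95% counting interval 5.94 to 13.74), with 55.6 ± 0.926 CPM in RS. Summed over the 26 markers, R libraries held 1126 to 1215 CPM, SD2 libraries 2001 to 2051 and RS libraries 9415 to 9857. Of the markers, Srgn was at 0 in R. In bulk RNA, fewer cells of a type and less RNA per cell cannot be told apart. Several of the largest differences of the whole comparison belong to this group or share its order. Srgn, a proteoglycan core protein, had 0 counts in R, 5.19 to 6.82 CPM in the SD2 line and 52.2 ± 1.69 in RS, at least 92.7-fold higher than R. Nxf7, an mRNA export factor family member, had 0 counts in R, 4.16 to 5.12 CPM in the SD2 line and 34 ± 1.12 in RS, at least 75.1-fold higher. Foxq1, a forkhead factor, had 1 count in R, 10.1 to 11.3 CPM in the SD2 line and 90.6 ± 5.03 in RS.

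Of the 15 genes with the largest rise by the naming rule, all 15 were also higher in RS than in R, 12 were lower in the SD2 line than in RS, and 1 was higher. That 1 was Alppl2, an alkaline phosphatase of early embryos, which had 1 count in R, 3.19, 4.84 and 5.02 CPM in the SD2 line and 1.62 ± 0.378 in RS. Of the 15, 10 were on the Suz12-repressed list, which held 1390 of the 15211 tested genes. Over all tested genes 31.8% were called higher in RS than in R. Between the SD2 line and RS, 14.9% were called lower and 13% higher. The rule's level cut used all 18 libraries, RS included, and both comparisons with R used the same R libraries. These counts therefore follow in part from how the genes were chosen.

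Markers of other lineages the cells could hold were also higher than in R. Over all tested genes 30.2% were higher and 26.1% lower than in R, and 13% higher and 14.9% lower than in RS. Trophoblast markers had 12 of 17 higher and 2 lower than in R (median 2.37). Their summed levels were 554.3 to 594.5 CPM in R, 974.2 to 979.5 in the SD2 line and 1977 to 2099 in RS. Against RS 2 (11.8%) were higher and 9 (52.9%) lower. Eomes, a factor of trophoblast and mesendoderm, had 2.75, 2 and 3.31 CPM in R and 17.3, 15 and 16.2 in the SD2 line (adjusted p = 2.52e-10, edgeR's quasi-likelihood test). Cdx2, the defining trophectoderm factor, reached 2.67 to 3.65 CPM from 0.125 to 0.81. Mesoderm markers had 12 of 16 higher and 0 lower than in R. Their summed levels were 23.31 to 23.72 CPM in R, 111.6 to 116.4 in the SD2 line and 208 to 222.9 in RS. Against RS 2 (12.5%) were higher and 4 (25%) lower. The lists share members: Eomes and Hand1 are also trophoblast markers here, and Pdgfra is also a primitive endoderm marker, so these counts are not separate. The primitive streak factor T was low in both lines, at 0.572 ± 0.032 CPM in R and 1.3 ± 0.3 in the SD2 line. Fibroblast markers had 9 of 13 higher and 0 lower, among them Thy1 (0.608 to 1.12 CPM in R, 17.7 to 20.1 in the SD2 line). Their summed levels were 776.1 to 875.5 CPM in R, 1090 to 1130 in the SD2 line and 676.6 to 707.1 in RS. Col1a1, a defining fibroblast collagen, stayed at 3.19 to 4.01 CPM in the SD2 line, and none of the 13 was at 0 in all libraries of either line. The part of such cells in the other differences was not tested. Collagen and basement membrane genes, which overlap these lists, had 18 of 27 higher and 4 lower (median 1.38), and clustered protocadherins, neuronal adhesion proteins with overlapping transcripts whose reads may be shared, had 11 of 23 higher and 0 lower.

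Germline genes, which encode proteins of piRNA defence, meiosis and germ cell RNA control, were higher than in R and in part higher than in RS. Of 35 tested, 30 were higher and 3 lower than in R (median 2.10), and 13 were higher and 3 lower than in RS (median 0.12). Those against R were 85.7% and 8.57%, beside 30.2% and 26.1% of all tested genes. Those against RS were 37.1% and 8.57%, beside 13% and 14.9%. Mael, a piRNA pathway protein, had 4.06, 3.1 and 3.51 CPM in R and 66.8, 66.9 and 68.5 in the SD2 line. The SD2 libraries lay above RS (40.7 ± 0.273 CPM) as well as above R, with log2 fold changes of 0.73 ± 0.069 and 4.24 ± 0.09. Mov10l1, the helicase that processes piRNA precursors, had 6.87, 8.38 and 6.75 CPM in R, 33 ± 1.05 in RS and 61.3, 57.6 and 59.3 in the SD2 line, 3.01 ± 0.08 above R and 0.85 ± 0.068 above RS. It lies on chromosome 15, described below. The RNA-binding protein Dazl, a germ cell licensing factor, had 3.75, 2.06 and 2.84 CPM in R and 29, 30.5 and 29.1 in the SD2 line (3.36 ± 0.13), 0.67 ± 0.099 above RS. Stag3, the meiotic cohesin subunit, had 42.7, 37.8 and 35.8 CPM in R and 134, 140 and 144 in the SD2 line (1.85 ± 0.063). The 3 lower members were Prdm1 (29.3 ± 2.06 CPM in R, 7 ± 0.3 in the SD2 line), a specifier of primordial germ cells, Nanos3 and Dppa3.

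Germline promoters of this list often carried the E-box CACGTG, a site bound by dimers that contain MAX, and sequence upstream of 2 of them is shown beside that of Cubn. Within 250 bases before any RefSeq start of the gene (GRCm38.p6), 14 of the 29 list members with a listed promoter held CACGTG (48.3%), against 1146 of 11572 tested genes (9.9%), 162 of 1798 genes at least 2-fold higher (9.01%), 4 of 18 Hox genes (22.2%), 9 of 87 developmental transcription factors (10.3%), 1 of 14 primitive endoderm markers (7.14%) and 0 of 13 two-cell genes. The motif is its own reverse complement, so 1 search covers both strands. A match is a string of letters, not a measured site. The stretches below end where an annotated exon or the gene's own first base begins; they run 5′ to 3′ on the gene's strand, with the motif in capitals. The motif starts 223 bases before the start of Mael and 246 before that of Mov10l1, and the Cubn stretch has none. The stretches hold 18, 10 and 2 CpG dinucleotides in the order printed. Mael lies at chr1:166238748-166238994 (minus strand), Mov10l1 at chr15:88982744-88982890 (plus strand) and Cubn at chr2:13491877-13492126 (minus strand), all upstream of the transcribed region.
Mael: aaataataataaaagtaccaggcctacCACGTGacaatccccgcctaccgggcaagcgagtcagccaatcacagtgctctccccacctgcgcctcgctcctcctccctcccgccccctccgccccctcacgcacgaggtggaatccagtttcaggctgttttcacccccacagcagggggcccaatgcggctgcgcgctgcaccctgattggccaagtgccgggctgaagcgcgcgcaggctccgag
Mov10l1: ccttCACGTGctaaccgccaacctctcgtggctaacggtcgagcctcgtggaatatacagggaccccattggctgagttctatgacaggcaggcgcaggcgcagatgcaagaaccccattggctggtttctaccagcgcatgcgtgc
Cubn: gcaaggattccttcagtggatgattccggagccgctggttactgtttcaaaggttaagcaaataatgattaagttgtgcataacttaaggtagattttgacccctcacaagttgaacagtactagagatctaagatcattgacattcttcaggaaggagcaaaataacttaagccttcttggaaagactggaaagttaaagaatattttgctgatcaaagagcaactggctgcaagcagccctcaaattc

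Genes of the 2-cell programme, which a small share of embryonic stem cells expresses in bursts, were higher as a block among those tested. Of 31 listed, 28 were in the counts and 23 passed the filter. Of these 22 were higher and 1 lower than in R (median 4.01), beside 30.2% and 26.1% of all tested genes. Members near 0 in R could pass the filter only through their level in other groups, which favours a rise. Against RS 2 were higher and 2 lower (8.7% each), under the 13% and 14.9% of all tested genes. Zscan4d, a telomere-linked marker of the 2-cell state, had 0.25, 0.911 and 0.473 CPM in R and 13.1, 11.9 and 12.4 in the SD2 line. The groups lay far apart (log2 ratio 4.50, 95% counting interval 3.94 to 5.13), and RS was at 13.7 ± 1.5 CPM. Usp17le, a deubiquitinase of a multicopy family, had 0.121 to 0.203 CPM in R and 6.8 to 8.96 in the SD2 line. Members of the Zscan4 and Usp17l families are near-identical copies, so the split of reads among them is uncertain. Summed over the list, R libraries held 8.915 to 10.69 CPM, RS libraries 109.2 to 110.3 and SD2 libraries 111.5 to 113.6. The 1 lower member was Zfp750 (2.96 CPM in R and 2.09 in the SD2 line).

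Imprinted genes, expressed from 1 parental copy, were called at shares near those of all tested genes: 18 of 45 were higher (40%, against 30.2%) and 15 lower (33.3%, against 26.1%), with a median of 0.06. Grb10, an adaptor that restrains insulin and IGF signalling, had 7.93, 7.35 and 6.55 CPM in R, 93.9 ± 0.944 in RS and 283, 274 and 278 in the SD2 line. Each SD2 library exceeded every RS and R library, by log2 fold changes of 1.57 ± 0.058 and 5.25 ± 0.072. Igf2, the fetal growth factor, had 10.7, 7.89 and 8.85 CPM in R and 39.6, 39.3 and 42.9 in the SD2 line, under the 92.8 ± 4.64 of RS. The paternally expressed hydrolase Mest fell, from 14.6, 15.1 and 13.4 CPM in R to 1.71, 1.86 and 1.65 in the SD2 line (−3.04 ± 0.17). The maternally expressed long RNA Meg3, named after its values were seen, had 230, 222 and 226 CPM in R, 114, 116 and 117 in the SD2 line and 0.0911 ± 0.112 in RS. The SD2 libraries lay below every R library (log2 fold change −0.97 ± 0.085), and RS was near 0. Rian, from the same domain and likewise chosen after the fact, had 240 ± 8.23, 115 ± 4.13 and 0.293 ± 0.171 CPM in the same order. Dlk1, the protein-coding gene of that domain, had 2.67 ± 0.681 CPM in R, 17.6 ± 1.25 in the SD2 line and 6.49 ± 0.642 in RS.

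The 572 genes at least 2-fold lower included regulators of neural fate. The neural list as a whole was split, with 9 of 20 higher (45%), 8 lower (40%) and a median of −0.02. Over all tested genes 30.2% were higher and 26.1% lower. Pax6, a regulator of eye and forebrain progenitors, had 74.1, 70.4 and 71.7 CPM in R and 7.25, 8.22 and 7.19 in the SD2 line. The groups did not overlap (−3.25 ± 0.10), and RS, at 4.79 ± 0.393 CPM, was lower still. Sox1, the earliest neuroectoderm SOX factor, had 36.8, 36.7 and 37.4 CPM in R and 5.42, 5.75 and 6.36 in the SD2 line (−2.66 ± 0.11), on chromosome 8. The neurofilament relative Ina fell from 114 ± 3.93 to 18.1 ± 0.457 CPM and the microtubule protein Map2 from 45.7 ± 3.95 to 9.39 ± 0.781. The members that rose were at low levels in R, among them Six3 (0.187 to 2.1 CPM) and Neurog1 (0.107 to 1.66), except the intermediate filament gene Nes (9.7 to 27.3) and the tubulin-binding gene Stmn2 (35.8 to 81.6). Summed over the 20, R libraries held 536.7 to 555.6 CPM and SD2 libraries 371.4 to 377.7.

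Of the 15 genes with the largest fall by the naming rule, all 15 were also lower in RS than in R, against 27.2% of all tested genes. Both comparisons used the same R libraries, so this count follows in part from how the genes were chosen. On the list of genes that fall without Suz12, which held 234 of the 15211 tested genes, were 6 of the 15. Napsa, an aspartic protease, had 60.5, 67.7 and 63.4 CPM in R and 2.34, 3.6 and 3.31 in the SD2 line (−4.37 ± 0.19). Utrn, the dystrophin relative utrophin, had 327, 311 and 307 CPM in R and 44.2, 41.1 and 42.7 in the SD2 line (−2.89 ± 0.11). Casq2, a calcium-binding protein of muscle, had 12.5, 15.4 and 10.9 CPM in R and 0.742, 0.169 and 0.382 in the SD2 line. Its log2 ratio was −4.91 (95% counting interval −5.60 to −4.30). Of the 15, 5 were lower in the SD2 line than in RS as well, against 14.9% of all tested genes: Casq2, Miip, Zfp869, Utrn and Id2.

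For 3 of these 5 all lines are given in full. Miip, an inhibitor of cell migration, had 16.5, 20.2 and 20.3 CPM in R, 8.35 ± 1.12 in RS and 2.28, 1.35 and 1.97 in the SD2 line. Its levels in the 3 lines did not overlap (−3.34 ± 0.20 from R, −2.16 ± 0.22 from RS). Zfp869, a zinc finger gene on chromosome 8, had 39.4, 42.3 and 38 CPM in R, 16 ± 0.137 in RS and 4.51, 4.9 and 4.26 in the SD2 line (−3.13 ± 0.086 from R, −1.81 ± 0.09 from RS). Id2, an inhibitor of bHLH factors induced by BMP signals, had 119, 115 and 122 CPM in R, 25.1 ± 1.31 in RS and 13.6, 14.3 and 14.1 in the SD2 line (−3.08 ± 0.076 from R, −0.84 ± 0.077 from RS).

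Response genes of Wnt, Nodal and BMP signals did not move as a block: 15 of 27 were higher (55.6%) and 6 lower (22.2%), with a median of 0.43. Over all tested genes 30.2% were higher and 26.1% lower. The Wnt target Sp5 had 22.7, 22 and 21.8 CPM in R and 1.71, 2.2 and 2.23 in the SD2 line (−3.44 ± 0.13). The Wnt effector Lef1 did the opposite, with 2.68, 1.88 and 2.77 CPM in R and 27.9, 29.2 and 30.5 in the SD2 line (3.58 ± 0.10). Nodal, the ligand of the epiblast, rose by 1.08 ± 0.086 on the log2 scale. Its inhibitor Lefty2 had 17.4, 18.9 and 17.6 CPM in R, 18.1 ± 0.795 in RS and 59.2, 55.4 and 53.2 in the SD2 line. In this dataset its rise (1.64 ± 0.12) was thus not seen in RS against R. The panel, described below, had it higher in the knockout as well.

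Naive pluripotency genes had 7 of 27 higher and 14 lower (median −0.16), with most changes small. For these and the primed markers below, 30.2% of all tested genes were higher and 26.1% lower. Sox2 fell by 0.44 ± 0.057 on the log2 scale and Nanog rose by 0.42 ± 0.045. Nr0b1, a nuclear receptor cofactor of pluripotency, had 244, 240 and 246 CPM in R and 89.6, 83.4 and 85.5 in the SD2 line (−1.50 ± 0.053). Klf4, a reprogramming factor, rose from 161 ± 11.7 to 276 ± 11.7 CPM. Against RS, 14 of the 27 were higher and 1 lower in the SD2 line, beside 13% and 14.9% of all tested genes. Markers of the primed epiblast had 14 of 19 higher and 4 lower (median 1.08). Among them were Otx2 (8.32 ± 1.21 CPM in R, 21.7 ± 1.53 in the SD2 line) and the DNA methyltransferase Dnmt3b (180 ± 8.89 and 381 ± 6.25). The panel's SD2 line, described below, did not show this lean.

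Polycomb genes were called at shares close to or below those of all tested genes, 30.2% higher and 26.1% lower. Of 16 PRC2 genes, 4 were higher and 3 lower, and the core genes Ezh2 (244 CPM in R, 245 in the SD2 line, adjusted p = 0.98) and Eed (380 and 372, adjusted p = 0.743) were not called. Ezhip, an inhibitor of PRC2, had 1.31, 0.971 and 1.28 CPM in R and 10.2, 10.6 and 11.7 in the SD2 line (3.18 ± 0.19). Of 31 PRC1 genes, 11 were higher (35.5%) and 6 lower (19.4%). Bmi1, a PCGF subunit, had 8.99, 10.3 and 9.59 CPM in R and 48.8, 47.4 and 46.5 in the SD2 line (2.30 ± 0.081), and Cbx8, a chromodomain subunit, rose from 0.955 ± 0.204 to 5.37 ± 0.25 CPM. Other chromatin lists moved little: COMPASS had 2 of 20 higher and 8 lower, H3K36 and DNA methylation genes 4 of 30 higher and 7 lower, and H3K9 methylation genes 1 of 21 higher and 9 lower. Setd2, which methylates lysine 36, was not called (adjusted p = 0.0952), but was in a fit of the 6 libraries alone (−0.21, adjusted p = 1.5e-05). Exceptions in size were the H3K9 cofactor Atf7ip (144 ± 8.66 to 71.2 ± 1.73 CPM) and the DNA methylation cofactor Dnmt3l (268 ± 12.2 to 653 ± 6.89).

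Stress and metabolic lists differed in how far RS shared the change. Genes of the ATF4 stress response had 22 of 29 higher and 4 lower than in R (median 0.62), and 16 higher and 4 lower than in RS. Asns, asparagine synthetase, had 120, 126 and 124 CPM in R and 345, 332 and 342 in the SD2 line. The groups did not overlap. Atf4 itself lies on chromosome 15. Targets of p53 had 5 of 24 higher and 6 lower than in R, while RS had 16 higher and 1 lower, and the SD2 line against RS 0 higher and 16 lower. Over all tested genes 30.2% were higher and 26.1% lower in the SD2 line than in R. The shares were 31.8% and 27.2% for RS against R, and 13% and 14.9% for the SD2 line against RS. Pmaip1, the apoptosis inducer NOXA, had 10.1 ± 0.412 CPM in R, 42.2 ± 2.47 in the SD2 line and 71.5 ± 3.08 in RS. Glycolysis and hypoxia genes had 16 of 29 higher and 2 lower, among them the collagen prolyl hydroxylase subunit P4ha2 (2.23 ± 0.12) and the phosphofructokinase Pfkp (1.59 ± 0.046).

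Cell cycle genes had 3 of 32 higher and 20 lower, with a median of −0.20, and cholesterol synthesis genes 5 of 24 higher and 12 lower (median −0.24). For this and the lists that follow, 30.2% of all tested genes were higher and 26.1% lower. Interferon-stimulated genes were split, with 13 of 23 higher and 7 lower, from Oas1a (1.45 ± 0.366 to 17.2 ± 0.643 CPM) to Ifitm3 (172 ± 9.05 to 34.9 ± 1.26). Cytosolic ribosomal protein genes had 0 of 49 higher and 2 lower, among them Rpl13 on chromosome 8. In a fit of the 6 libraries alone Rpl8 (0.47) and Rpl5 (−0.14) were called as well. Genes of the mitochondrial genome had 2 of 13 higher, ND1 and ND2, and the call of ND2 was lost without R replicate 2 (adjusted p = 0.209), without each SD2 library in turn (adjusted p = 0.0782 to 0.0935) and without chromosomes 8 and 15 (adjusted p = 0.0511). In a fit of the 6 libraries alone ND4 (0.64, adjusted p = 0.00139) and ND6 (0.24, adjusted p = 0.00825) were called as well. Of 5 Y-linked genes 2 were higher and 3 lower; Usp9y, a deubiquitinase, had 18, 17.8 and 17.4 CPM in R and 1.2, 1.8 and 1.59 in the SD2 line (−3.53 ± 0.29).

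Whole chromosomes stood apart beside these gene groups. The median log2 fold change of the 790 tested genes of chromosome 8 was −0.56, with 107 called higher and 517 lower, and that of the 598 genes of chromosome 15 was 0.49, with 373 called higher and 47 lower. The medians of the other autosomes and X lay between −0.07 and 0.08. Chromosome 8 was equally low in RS (−0.52 against R) and did not separate the SD2 line from RS (−0.01). Chromosome 15 was at 0.01 in RS and 0.51 in the SD2 line against RS, with the shift present from about 39.1 Mb (GRCm38.p6) onward. Each SD2 library showed both shifts. Among genes whose mean log2 CPM reached 3, medians relative to R were −0.668 to −0.651 on chromosome 8 and 0.376 to 0.390 on chromosome 15. In the panel's SD2 line against wild type such genes had medians of −0.129 and −0.0886, with −0.106 on the other chromosomes. In the SUV2 dataset chromosome 8 was at −0.425 in RS and −0.489 in the SUV2 line against R. Chromosome 15 was at −0.0547 and −0.0171 there. The HP1 dataset's knockout against wild type had −0.0507 on chromosome 8 and −0.0564 on chromosome 15. Copy number was not measured, and its part in these shifts was not tested. Without both chromosomes, 7563 of 13823 genes (54.7%) were called, with 2203 (15.9%) at least 2-fold higher and 461 (3.34%) lower. Of the genes described, Col4a1, Sox1, Zfp869, Nanos3 and Rpl13 lie on chromosome 8 and Mov10l1, Hoxc11, Rpl8 and Atf4 on chromosome 15.

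**Figure D4:**
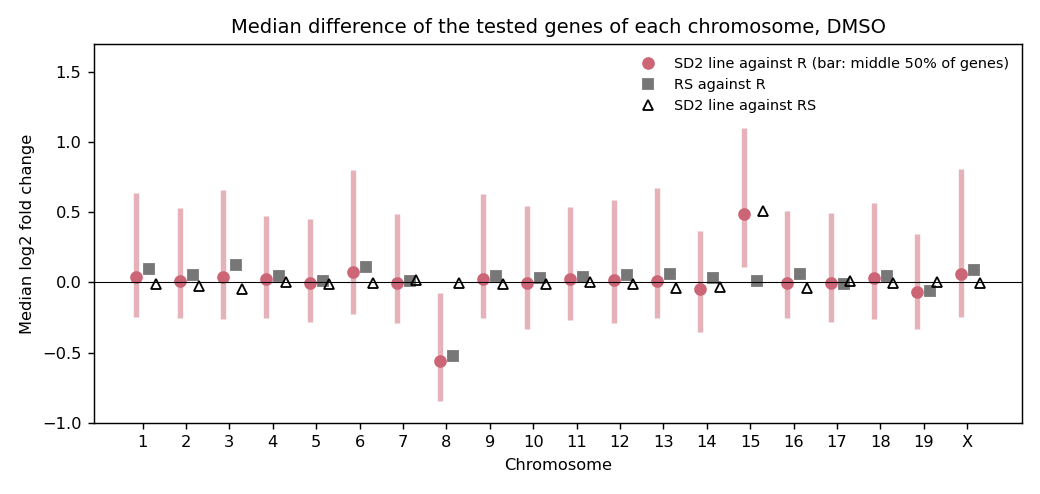
Median log2 fold change of the tested genes of each chromosome (x axis) for the SD2 line against R (circles, with bars for the middle 50% of genes), RS against R (squares) and the SD2 line against RS (triangles), all in DMSO. Chromosome 8 is low in both comparisons with R, and chromosome 15 is high in both comparisons of the SD2 line.

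The distance from R was also measured after dTAG-13 in both lines; RBBP5 protein was not measured in these data. After dTAG-13, 8956 of 15211 genes (58.9%) were called between the SD2 line and R, 2413 (15.9%) at least 2-fold higher and 863 (5.67%) at least 2-fold lower. All 30 genes with the largest changes in DMSO were called in the same direction. Over all tested genes 29.4% were called higher and 29.5% lower. The Suz12-repressed list had 1003 of 1390 higher and 92 lower, with a median of 1.37 against 1.60 in DMSO. The summed level of 2-cell genes was 15.92 to 18.6 CPM in R and 190.9 to 204.3 in the SD2 line after dTAG-13. The change of the SD2-R difference with dTAG-13 was tested as an interaction, and 1744 genes (11.5%) were called, 710 (4.67%) with a more positive and 1034 (6.8%) with a more negative difference, at a change of at least 2-fold 136 (0.894%) and 239 (1.57%). One R library, dTAG-13 replicate 3, stood apart from its group, and without it 4746 genes were called. Cubn lost 3.40 of its log2 difference (adjusted p = 3.5e-05, edgeR's quasi-likelihood test) and Tbx3 0.63 (adjusted p = 3.6e-05), while Hoxd13 (0.51, adjusted p = 0.062) and Mael (−0.12, adjusted p = 0.70) missed the threshold.

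A second line with the fusion, in a panel of fusion lines counted with other tools and without the RBBP5 tag, shares no library with these and gave a second measurement. There the SD2 line was set against wild type, with 7744 of 16228 genes called (47.7%), 2139 (13.2%) at least 2-fold higher and 392 (2.42%) at least 2-fold lower. The panel's columns were matched to lines by their wording. Over the 12811 genes tested in both, the log2 fold changes had a Pearson r of 0.767 and a Spearman rho of 0.702 as a description across genes, which are not independent. Of the 4818 genes called in both, 94.3% had the same sign. At a fold of at least 2, 1199 genes were higher in both, 60.5% of the 1983 higher here and 76.8% of the 1561 in the panel, and 10 were higher here and lower there. Lower in both were 160, 34.6% of the 463 here and 52.8% of the 303 in the panel. Against the panel's knockout rescued with SUZ12 in place of wild type, 1083 were higher in both, 54.6% of those here. Trophoblast markers depended on the reference. Against the panel's wild type 9 of 17 were higher and 4 lower, beside 23.4% and 24.3% of all its tested genes. Against the rescue 6 were higher and 9 lower (median −0.34), beside 23.9% and 23.8%.

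**Figure D5:**
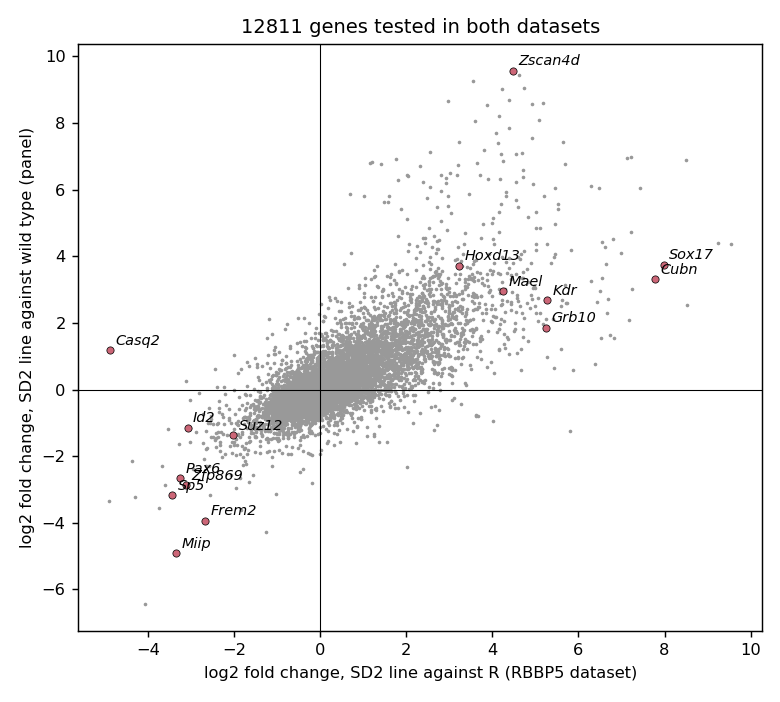
Log2 fold change of 12811 genes in the SD2 line against R (x axis) and in the panel's SD2 line against wild type (y axis), each point 1 gene. Most genes far from 0 on both axes lie in the same-sign quadrants, and 94.3% of the 4818 genes called in both share their sign.

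Genes named above were followed in the panel. Miip had 36.4, 34.3 and 31.6 CPM in the panel's wild type, 32.4, 32.6 and 37.3 with SUZ12 rescue, 15.9, 17 and 16.1 in its knockout and 0.9, 1.26 and 1.22 in its SD2 line, −4.91 on the log2 scale against wild type. The order of the lines was thus the same as here. Zfp869 was lower there as well (−2.87), as was Sp5 (−3.18). Zscan4d was at 0 in all libraries of wild type and rescue, at 2.32, 3.3 and 2.65 CPM in the knockout and at 6.57, 3.25 and 4.61 in the SD2 line. Lefty2 had 143, 132 and 148 CPM in wild type and 266, 262 and 227 with SUZ12 rescue. It had 378, 455.5 and 397 CPM in the knockout and 386, 426 and 405 in the SD2 line. Of the 15 genes highest here, 11 were called higher in the panel's SD2 line against wild type and 0 lower. Of the 15 lowest here, 13 were called lower there and 1 higher: Casq2, at 0.994, 1.2 and 1.41 CPM in wild type and 2.56, 3.03 and 2.57 in the SD2 line (1.18). Cholesterol synthesis genes had 0 of 24 higher and 14 lower there, against 23.4% and 24.3% of all genes, and Igf2 (0.66, adjusted p = 0.20) was not called. Primed epiblast markers did not lean higher there. Against wild type 6 of 19 (31.6%) were higher and 6 (31.6%) lower (median −0.22), and against the SUZ12 rescue 6 were higher and 8 lower. Dnmt3b had 297, 370 and 369 CPM in the panel's wild type and 302, 255 and 308 in its SD2 line.

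The distance of the SD2 line from R was last compared with that of the S12N-SUV2 line from R in the second RBBP5 dataset, in 1 fit with a term for the difference of the differences; CPM values in this and the next paragraph are scaled within that fit. Of 12981 genes, 6243 (48.1%) were called, 2615 (20.1%) more positive and 3628 (27.9%) more negative for the SD2 line, with 768 (5.92%) at least 2-fold more positive and 392 (3.02%) at least 2-fold more negative. Dataset and fusion cannot be told apart in this term, since each fusion has its own R libraries and its own tools. Of 27 Hox genes 1 was more positive for SD2, 11 (40.7%) were more negative and 15 were not called, with a median of −1.37. Hoxd13 reached 41.6, 45 and 42.9 CPM in the SUV2 line from 0.94, 0.811 and 0.85 in its R, and the term was −2.42 ± 0.22. Levels in R enter the term as well. Hoxa11 had 10.4, 8.96 and 8.85 CPM in the SD2 line and 4.7, 4.22 and 4.41 in the SUV2 line. Its R levels were 0.462, 0.321 and 0.286 CPM here and 0, 0.0541 and 0.0567 there. A more negative term is thus not by itself a lower level in the SD2 line. For 2-cell genes 11 of 19 (57.9%) were more positive for SD2 and 1 more negative. No size is given for the list, since such genes are near 0 in that dataset. Zscan4d was at 0, 0.111 and 0.0501 CPM in the SUV2 line and at 0.157, 0.162 and 0.113 in its R.

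Germline genes had 20 of 33 more positive for SD2 and 2 more negative (median 1.17), and primitive endoderm markers 14 of 26 and 4 (median 1.08). Mael reached 14.4, 14.7 and 14.5 CPM in the SUV2 line from 3.5, 4.27 and 3.57 in its R, and the term was 2.27 ± 0.15. Miip had 19.7, 18.4 and 16.4 CPM in that R and 20.7, 21.1 and 19.7 in the SUV2 line, a difference of 0.17 on the log2 scale, and the term was −3.55 ± 0.17. Sp5 had 5.12, 4.43 and 3.63 CPM in that R and 5.83, 6.06 and 6.16 in the SUV2 line (term −3.92 ± 0.18). In the same units R of the present dataset had 24, 23.3 and 23 CPM, so the R levels themselves differed between the datasets. The Suz12-repressed list had 460 of 1249 more positive and 162 more negative, with a median of 0.38 against −0.04 over all genes of the fit.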

How the data were processed

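The deposited values used are raw read counts per gene that the authors made for each library. Per the submitters' processing notes, reads of this RBBP5 dataset were processed with Trim Galore 0.6.7, HISAT2 2.2.1 and featureCounts 2.0.8 (DESeq2 1.46.0 is also named), the panel and the SUV2 dataset with Trim Galore 0.4.5, STAR 2.4 and HTSeq 0.9.1, and the HP1 dataset with Trimmomatic and HISAT2. Columns of the panel were matched to lines by inference from their wording. Of 27179 Entrez identifiers 25275 matched a RefSeq symbol. Whether the counting used strand is not given in the sources used here.

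The 18 libraries of the dataset were fitted with edgeR 4.0.16 in R 4.3.3 (filterByExpr, TMM scaling, a mean for each of 6 groups, quasi-likelihood test, two-sided). The Benjamini-Hochberg adjustment ran over all 15211 tested genes, with a call at 0.05. The common coefficient of biological variation was 0.0881. Other datasets were fitted alone, except the joint fit with the SUV2 dataset on 12981 genes. ± is the SE after a log2 fold change and the SD after CPM, with n = 3. A group total under 30 counts gives a 95% counting interval in place of the SE, and a group at 0 a bound from a floor of 3 counts over the group; intervals and floors cover counting error only. Depth per library is given with the results. The scripts recovered known changes in simulated counts. That simulation changed far fewer genes than were called here and none with only a few counts in R, so it does not cover those cases. Replicate pairs of a group differed by more than sampling noise, but by little in the SD2 line. Chi-square per degree of freedom was 1.35 to 1.45 for SD2 pairs. In R it was 6.45 and 5.09 for the pairs with replicate 2 and 1.97 for the remaining pair.

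Genes were named by rule: Suz12, Rbbp5, Setd2, Ezh2 and Eed, the 15 largest called rises and 15 largest called falls, a mean log2 CPM of at least 1, no overlap between groups and no predicted symbol, and up to 4 members per list by smallest p. Not all are printed, and genes outside the rule that the text gives with values (such as Meg3, Rian, Dazl, Hand1, Nes and list members without a call) were chosen after their values were seen. The members, the 31 lists and the tests were chosen with earlier results of these data known. Promoters are from RefSeq, GRCm38.p6. Alternatives were DESeq2 1.42.0, RLE scaling, no filter, fewer libraries, a replicate block, leaving out each library and, added after seeing the data, leaving out chromosomes 8 and 15. A few genes of the lists are not reported here.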

Additional observations from a re-analysis of the deposited data

Results flagged for a closer look

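The change of the difference between the SD2 line and R with dTAG-13 was called for 1744 genes. The count was 1289 to 4746 when 1 library was left out. Among Suz12, Rbbp5, Setd2, Ezh2, Eed and the 15 largest rises and 15 largest falls it was called for 5, given here; members of the gene lists, such as Tbx3, were called besides. The log2 difference changed by −3.43 for Foxq1, by −3.40 for Cubn and by −4.84 for Xlr3a, which were higher in the SD2 line. These genes had 1, 9 and 1 counts over the R libraries in DMSO, so the sizes carry wide counting error. It changed by 1.97 for Usp9y and by −0.80 for Id2, which were lower in the SD2 line. R dTAG-13 replicate 3 stood apart from its group. Without it the changes were −3.49 for Foxq1, −3.60 for Cubn, −4.81 for Xlr3a, 1.68 for Usp9y and −0.86 for Id2, each still called. Without R replicate 2, which holds the 1 R count of Foxq1, the change of Foxq1 was −5.32.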

How the results depend on the processing

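In the comparison of the SD2 line with R in DMSO, every count of calls over all genes stayed within 1.5 times its value under each alternative. The count of 8575 called rose to about 10400 with only the 9 DMSO libraries and to 9946 with only the 6. Of these, 5245 and 4905 were lower, against 3974 in the main fit. Leaving out 1 library gave 7801 to 7963 genes called, 2427 to 2457 at least 2-fold higher and 563 to 586 lower. Replicate numbers do not pair the samples: deviations of same-numbered R and SD2 libraries correlated at 0.00013, 0.0073 and −0.018, and the fit with the replicate block called 8595 genes. The change with dTAG-13 depended on 1 library: leaving out 1 library gave 1289 to 4746 genes called, 497 to 2324 higher, 765 to 2422 lower, 111 to 218 at least 2-fold higher and 203 to 354 lower, the highest values all without R dTAG-13 replicate 3. The comparison after dTAG-13 then called 10540. The median of the Suz12-repressed list was 1.625 with DESeq2 and 1.58 to 1.625 without 1 library, and that of the list that falls without Suz12 −0.7843 to −0.7217. With these lists drawn at a fold of at least 4, the repressed list had 584 higher, 13 lower and a median of 2.35, and the other 3 higher, 18 lower and −1.156. Over the 500 genes of largest variance the distances were 3.094 (SD2 line to R), 4.04 (RS to R) and 1.737 (SD2 line to RS), and with a prior count of 0.5 they were 1.187, 1.338 and 0.6505. Over genes whose mean log2 CPM reached 3, chromosome medians were −0.6632 for chromosome 8 and 0.3764 for chromosome 15.

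Genes near 0 that were never called changed sign, and the cause was not tested. Amph was at 0.00604 with RLE scaling, 0.004316 with DESeq2, 0.01137 with the 6 libraries alone and −0.05841 to 0.04583 without 1 library. Ezh2 was at −0.01277 with no filter, −0.001715 with the 9 DMSO libraries, −0.009385 without chromosomes 8 and 15 and −0.02052 to 0.02394 without 1 library. Cspg4b was at −0.01238 with no filter, −0.002921 with the replicate block, −0.009153 without chromosomes 8 and 15 and −0.0505 to 0.08511 without 1 library. Lacc1 was at 0.001138 with the 6 libraries alone and −0.0888 to 0.1047 without 1 library. Without 1 library Tagln was at −0.07641 to 0.1384 and Prex2 at −0.03711 to 0.05844.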
